A study of Mus musculus with 6 samples.

Results

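Acute phase and plasma protein genes are described here as they appeared in mouse embryonic fibroblasts that lack or carry Lpar6, a receptor for the lipid signal lysophosphatidic acid. The group comprised 9 genes, Hp, Lrg1, Saa3, Orm1, Mup2, Apoc1, Apoe, Cp and Rbp4, and every probe annotated to one of them was taken. This gave 17 of the 45281 probes on the array and 9 of the 19057 genes that a probe names. The genes were chosen with their difference between the genotypes known, so that their values are a description and carry no test. Tests are given only for related genes outside the group.

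The samples were 3 arrays of Lpar6-/- cells (the knockout, arrays D to F) and 3 arrays of Lpar6+/+ cells (the wild type, arrays A to C), all of a mixed 129SV and C57BL/6 background and with no further treatment named in the labels. The series is titled as a knock-down, but each sample's genotype is given as Lpar6-/- or Lpar6+/+, and the genotypes were followed here. Embryonic fibroblasts are primary cells grown out of dissociated embryos, a mixed population rather than 1 cell line. No label ties a replicate to its own embryo or culture, so the p-values given reflect array-to-array spread alone, and that spread may be technical. RNA was hybridised to Illumina bead arrays, on which a probe is called detected where its detection p, its rank against the negative control beads, is below 0.05.

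The acute phase response is the change in blood plasma proteins that follows infection or injury. Interleukin-6 and interleukin-1 drive it in the liver through STAT3, NF-kappaB and the C/EBP factors, and fat cells, macrophages and fibroblasts make some of the same proteins. Haptoglobin (Hp) and ceruloplasmin (Cp) bind haemoglobin and copper, apolipoproteins (Apoc1, Apoe) dress lipid particles, and the lipocalins (Mup2, Orm1, Rbp4) carry small hydrophobic molecules in a barrel-shaped fold.

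The sequences upstream of 3 members with a single annotated start, Lrg1, Mup2 and Saa3, are shown from the RefSeq table (GRCm38.p6) because the members differed widely from each other in how far the genotypes stood apart, as described below, and because C/EBP, STAT and NF-kappaB sites are known from promoters of acute phase genes. The table holds 6 of the 9 genes, with 10 annotated starts, and the 250 bases before each of the 10 were searched on both strands. The letters were TTGCNNAA for C/EBP, TTCNNNGAA for STAT, GGG and TTTCC with any 2 bases between them for NF-kappaB, AGGTCA repeated after any 1 base for the PPAR-RXR pair of fat cells and TATAAA for the TATA box. Capitals mark a match, here 1 C/EBP match on the opposite strand of Saa3.
Lrg1, chr17:56121947-56122196 (- strand): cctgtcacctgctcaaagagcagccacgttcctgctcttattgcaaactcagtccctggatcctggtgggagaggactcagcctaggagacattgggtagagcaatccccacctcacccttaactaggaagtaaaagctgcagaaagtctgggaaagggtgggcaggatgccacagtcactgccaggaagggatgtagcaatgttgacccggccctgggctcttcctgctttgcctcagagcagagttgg
Mup2, chr4:60139857-60140106 (- strand): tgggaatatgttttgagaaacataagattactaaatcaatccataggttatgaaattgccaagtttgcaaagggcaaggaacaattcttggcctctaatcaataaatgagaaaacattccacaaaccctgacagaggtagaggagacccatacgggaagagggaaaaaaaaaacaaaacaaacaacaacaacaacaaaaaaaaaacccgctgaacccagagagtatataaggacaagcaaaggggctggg
Saa3, chr7:46715677-46715926 (- strand): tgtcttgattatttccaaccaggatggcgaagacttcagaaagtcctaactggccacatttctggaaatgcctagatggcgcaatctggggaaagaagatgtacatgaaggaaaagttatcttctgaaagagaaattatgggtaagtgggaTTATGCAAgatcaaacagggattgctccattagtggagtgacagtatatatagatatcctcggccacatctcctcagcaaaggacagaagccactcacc
The C/EBP letters stood in Saa3 from 99 bases before the start, before the second start of Cp (TTTTGCAA, from 70 bases before it) and before the second start of Rbp4 (TTATGCAA, from 128 bases before it). The window of the second Cp start reaches past the first start of that gene, and that of the second Rbp4 start does not. Neither window is printed. Lrg1 and Mup2 held none of the 5 sets of letters, and no member start held the STAT, NF-kappaB or PPAR-RXR letters. The search was for exact letters, so a variant spelling, of the TATA box for instance, was not counted. TATA box letters were found at the second starts of Cp and Rbp4, and at the second start of Apoe. Over all 32851 starts of the table, 9.56% held the C/EBP letters, 7.02% the STAT letters, 1.41% the NF-kappaB letters, 0.0335% the PPAR-RXR letters and 12.4% the TATA box letters. These are matches of letters and not measured binding.

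The genotype labels were checked on Lpar6 itself. Its 1 probe gave intensities of 76.7, 77.9 and 75.99 on the knockout arrays and 1373, 1223 and 1278 on the wild-type arrays, and it was detected on none of the knockout arrays. Between 19006 and 19249 probes were detected on the knockout arrays and between 19646 and 20137 on the wild-type arrays. Of the 13 fibroblast markers listed, 12 passed the detection filter (detected on at least 3 of the 6 arrays); Postn did not. Of the members, 13 probes of 8 genes passed that filter. The exception was Rbp4. Of the 13 probes, 4 were detected on no wild-type array and entered through the knockout arrays, which fixes their direction. In RNA of a whole culture, more cells that make a transcript and more transcript per cell cannot be told apart.

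**Figure D1:**
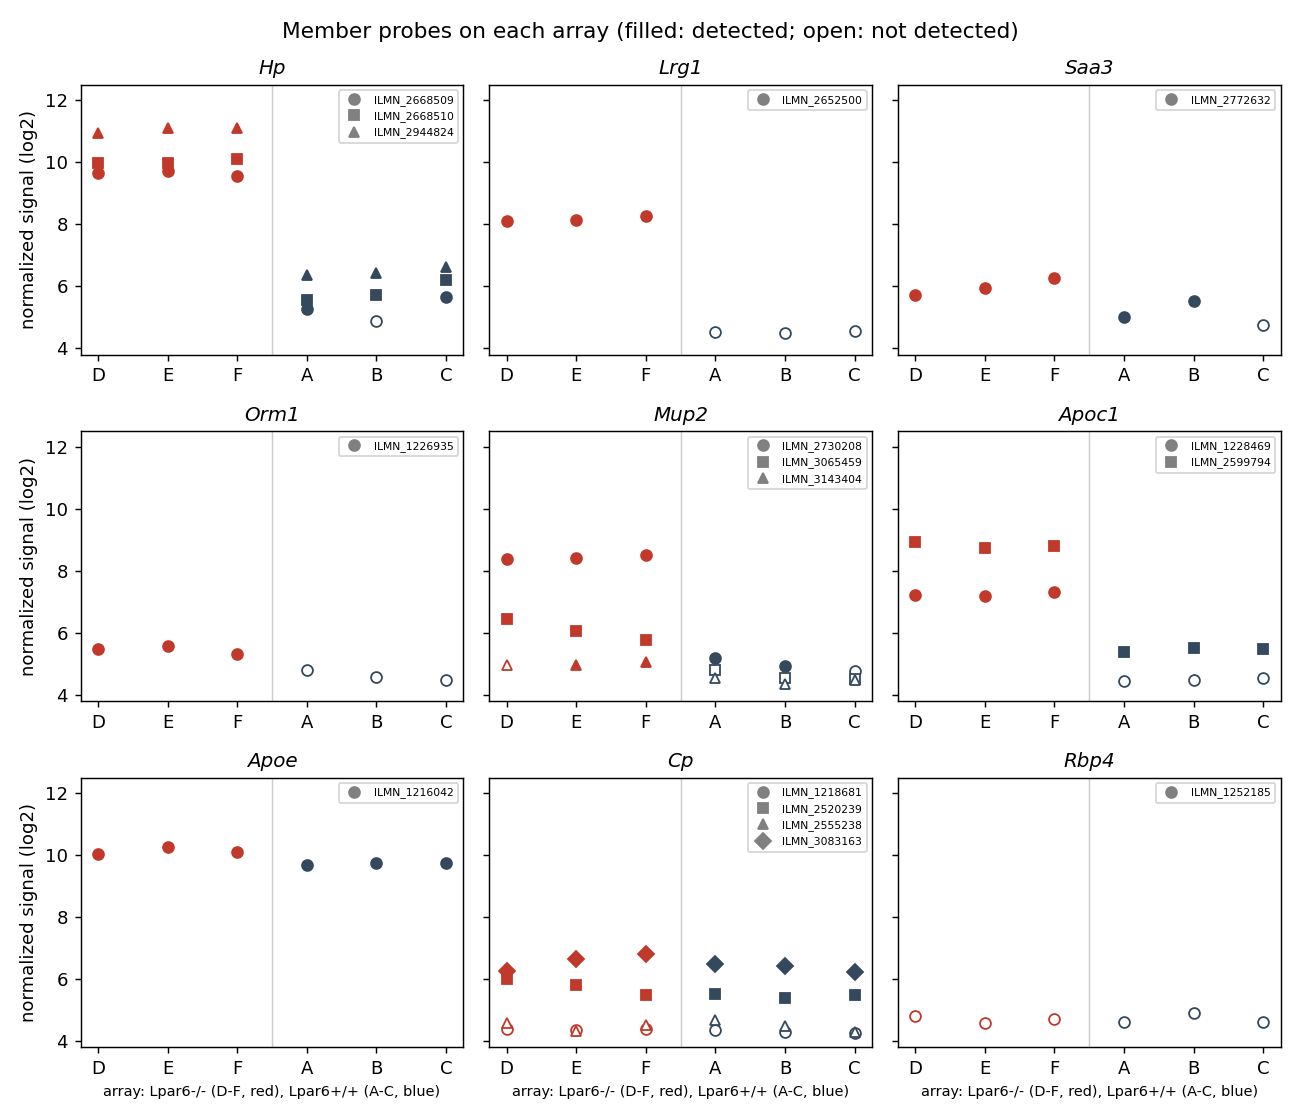
Normalized log2 signal of all 17 member probes (vertical axis) on the knockout arrays D to F (red) and the wild-type arrays A to C (blue), 1 panel per gene and 1 symbol per probe, filled where detected. Hp, Lrg1, Apoc1 and the brightest Mup2 probe stand far apart between the genotypes, Saa3, Orm1 and Apoe by less, and Rbp4 and both detected Cp probes overlap.

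Of the 8 member genes that passed the filter, all 8 had a higher mean in the knockout, by 0.20 to 4.57 on the log2 scale, and in 7 the 3 knockout values lay above the 3 wild-type values. Over all 11040 genes, 27.6% had knockout values wholly above the wild type, and 52.8% had groups that did not overlap in either direction. A difference of at least 1 on the log2 scale was found in 4 members (Hp, Lrg1, Mup2 and Apoc1), against 2.39% of all genes. The members' median difference was 2.12, against 0.03 for all genes; it was 0.98 without background correction, 1.22 with the authors' log2 values and 0.88 over 9 genes without the detection filter. Since the genes were chosen on this comparison, nothing is read from these counts. With this background correction 4 genes had differences above 3, 3 genes lay between 0.4 and 0.9, and Cp was at 0.20. Without background correction Hp alone stayed above 3, at 3.42, while Apoc1, Mup2 and Lrg1 had 1.80, 1.63 and 1.58, and Saa3 and Orm1 had 0.25 and 0.22.

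Hp, which encodes haptoglobin, the plasma protein that captures free haemoglobin, stood furthest apart. Its brightest probe (ILMN_2944824) had intensities of 1891, 2302 and 2214 on the knockout arrays and 167, 165 and 171 on the wild-type arrays. The knockout values lay close together, and each was more than 10 times each wild-type value. After normalization this probe averaged 11.05 ± 0.085 in the knockout and 6.48 ± 0.14 in the wild type on the log2 scale (SD, n = 3 each), a difference of 4.57. The other Hp probes gave the same picture from dimmer signals. ILMN_2668510 had intensities of 992, 1082 and 1145 in the knockout against 126, 129 and 144 in the wild type, and ILMN_2668509 had 809, 892 and 779 against 115, 104 and 119. Their log2 differences were 4.20 and 4.36. Wild-type array B did not detect ILMN_2668509, so the size of that difference is uncertain.

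Lrg1 encodes leucine-rich alpha-2-glycoprotein, a secreted protein induced with the acute phase and known to act on TGF-beta signalling in blood vessels. Its probe had intensities of 320.0, 337 and 350.0 on the knockout arrays and 89.4, 89.6 and 84.9 on the wild-type arrays. No wild-type array detected it. With this background correction the transcript was at least 9.65-fold higher in the knockout. This bound was taken against the lowest detected signal of each wild-type array.

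Saa3, the serum amyloid A form made outside the liver by fat cells and macrophages, was close to background in both genotypes. It had intensities of 117, 125 and 136 on the knockout arrays and 106, 122 and 91.6 on the wild-type arrays. The lowest knockout intensity lay below the highest wild-type one. After normalization the genotypes no longer overlapped, with 5.98 ± 0.27 in the knockout and 5.09 ± 0.39 in the wild type (log2, SD, n = 3 each). Wild-type array C did not detect it. The liver forms in the same gene cluster, Saa1 and Saa2, and their neighbour Saa4 were detected on none of the 6 arrays.

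Among the lipocalins, Orm1 encodes orosomucoid, an abundant plasma protein that binds drugs and lipids. Its intensities were 110.0, 112 and 102 on the knockout arrays and 99.8, 93.4 and 82.3 on the wild-type arrays, where no array detected it. The knockout values lay above the wild-type values by a narrow margin. With this background correction the level was at least 1.47-fold higher. Orm1 has near-identical copies, so the gene behind the probe is uncertain; the probes named for Orm2 and Orm3 were detected on none of the 6 arrays.

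Mup2 is 1 of the major urinary proteins, pheromone carriers that the male liver secretes and that are also known from fat tissue. Its 3 probes disagreed in size. The brightest (ILMN_2730208) had intensities of 369, 398 and 406 on the knockout arrays and 111, 105 and 92.2 on the wild-type arrays. The second (ILMN_3065459) had 148, 130.4 and 115 against 99.9, 91.8 and 83.99, with no wild-type detection. The third (ILMN_3143404) had 98.6, 97.1 and 96.1 against 90.1, 82.2 and 82.1, and only knockout arrays E and F detected it. All 3 placed the knockout above the wild type without overlap. With this background correction they did so by 3.47 on the log2 scale for the first and by at least 2.30-fold and at least 1.07-fold for the others. Array C did not detect the first probe, so its size is uncertain too. The major urinary protein genes are near-identical to each other and form 1 cluster on chromosome 4, so none of these probes can be tied to Mup2 alone. The probe named for Mup6 gave 116, 116 and 112 in the knockout and 94.2, 97.4 and 84.99 in the wild type. No wild-type array detected it, and with this background correction the knockout level was at least 1.73-fold higher. Its fitted log2 change was 1.07 (limma, adjusted p = 1.5e-05). Probes named for Mup5 and Mup20 were detected on none of the 6 arrays, and that for Mup3 on 1 knockout array.

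Rbp4 encodes the plasma carrier of retinol, which liver and fat cells secrete. Its 1 probe had intensities of 94.8, 86.9 and 87.99 on the knockout arrays and 93.3, 103.7 and 87.9 on the wild-type arrays. The genotypes overlapped and no array detected it, so the level was not measurable above background in either genotype.

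The apolipoproteins Apoc1 and Apoe are adjacent genes on chromosome 7, yet their differences were unlike in size. Apoc1, a small exchangeable apolipoprotein known to inhibit lipoprotein lipase, had intensities of 508, 479 and 489 on the knockout arrays and 118, 122 and 114 on the wild-type arrays by its brighter probe. That probe averaged 8.82 ± 0.097 in the knockout and 5.46 ± 0.084 in the wild type (log2, SD, n = 3 each), a difference of 3.36. The dimmer probe (ILMN_1228469) had 203, 206 and 212 against 86.1, 89.2 and 84.9, with no wild-type detection. It was at least 5.06-fold higher with this background correction. Apoe, the ligand by which cells take up remnant particles, was well above background in both genotypes. Its intensities were 1029, 1308 and 1141 on the knockout arrays and 1012, 944 and 915 on the wild-type arrays. The lowest knockout intensity exceeded the highest wild-type intensity by little. The log2 difference of Apoe was 0.42, from 10.14 ± 0.13 in the knockout and 9.73 ± 0.036 in the wild type (SD, n = 3 each). Of the other genes of this cluster, Apoc4 was detected on no array and Apoc2 had a difference of 0.05 that did not pass (limma, adjusted p = 0.838).

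Cp encodes ceruloplasmin, the copper-carrying plasma oxidase that helps load iron onto transferrin. Of its 4 probes, 2 passed the filter and the other 2 were detected on no array. The brightest (ILMN_3083163) had intensities of 139, 161 and 169.7 on the knockout arrays and 175, 164 and 145 on the wild-type arrays. The second (ILMN_2520239) had 128, 119.97 and 107 against 124, 118 and 114. The genotypes overlapped for both probes. On the log2 scale the differences were 0.20 and 0.31, while the ratios of mean intensity, before any processing, were 0.97 and 0.998. The median intensity over all probes was 88.3 to 92.6 on the knockout arrays and 90.7 to 98.3 on the wild-type arrays. Unprocessed ratios this close to 1 therefore give no direction by themselves. Under the alternatives the log2 difference of the brightest probe lay between 0.0099 and 0.35.

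**Figure D2:**
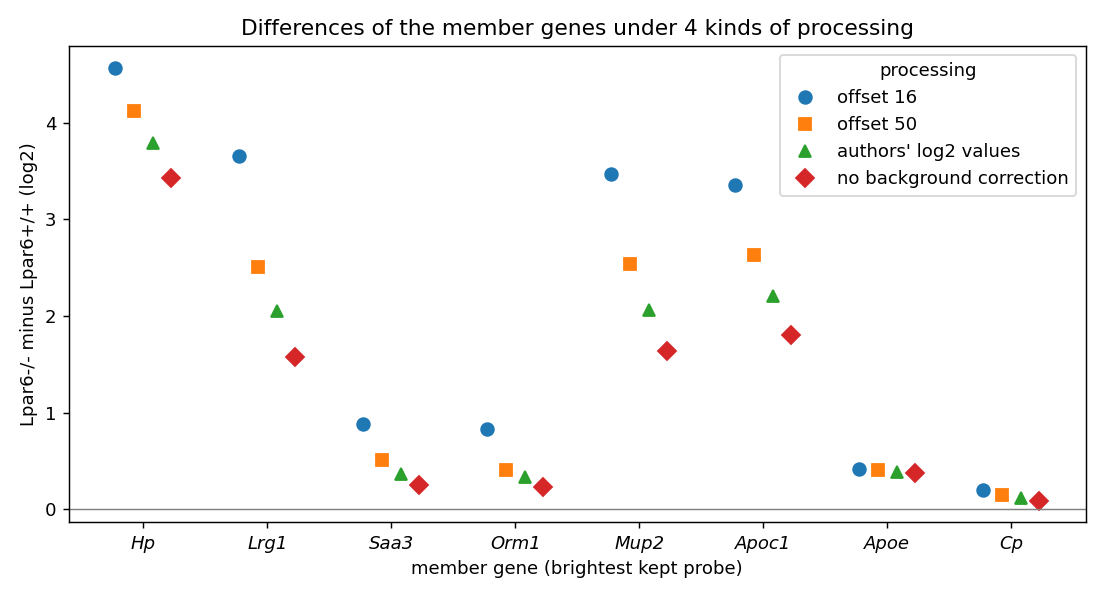
Difference between knockout and wild type (log2, vertical axis) for the 8 measured member genes under 4 kinds of processing: background correction with an offset of 16, the same with an offset of 50, the authors' log2 values and no background correction. Every difference is above 0, and those of dim genes shrink most: Lrg1 has 3.65 with the offset of 16 and 1.58 without background correction, while that of Apoe is between 0.37 and 0.42.

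Within a genotype the spread between arrays was not the same for all of these genes. The median SD over the 8 genes was 0.11 in the knockout and 0.14 in the wild type (log2, n = 3 each). The largest were 0.28 for Cp in the knockout and 0.39 for Saa3 in the wild type. That of Cp exceeded its difference of 0.20. Knockout array D gave the lowest knockout value for 6 of the 8 genes, while no wild-type array was lowest for more than 4. The genes outside the group whose profile over the 6 arrays lay closest to the members' mean profile, by Euclidean distance of log2 values from the wild-type mean, were Ltf, Cox6a2, Mrap, Krt17 and Lgr5, at distances of 0.08 to 0.25. These encode the neutrophil and milk protein lactoferrin, a muscle respiratory chain subunit, an adrenal and fat cell receptor partner, a keratin and a receptor of stem cells. All of them share the same 6 arrays with the members. On the knockout arrays the members' mean profile lay at 2.08 to 2.24. That is between the members at 3.36 or more and those at 0.88 or less, so these genes resemble an average and no single member.

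Other acute phase and plasma protein genes were then counted from a list that leaves out the members, to see how far the rest of the programme went with them. Of 26 such genes that passed the filter, 13 rose and 4 fell in the knockout (limma, adjusted p below 0.05 over all 19802 probes kept), a called share of 65.4%. Of all 11040 genes 39.7% were called, 20.6% higher and 19.1% lower. Itih4, 1 of the 13 that rose, was detected on no wild-type array and entered through the knockout arrays, which fixes its direction. The list's median difference was 0.40 on the log2 scale. Under median scaling 12 were higher and 6 lower. The largest changes were rises of Lcn2, C4b and Serpina3n. Lcn2, a lipocalin that withholds iron from bacteria, had intensities of 239.95, 263 and 240.0 on the knockout arrays and 104, 103 and 93.6 on the wild-type arrays, a change of 2.72 ± 0.09 (SE; limma, adjusted p = 1.1e-07). It was detected on 1 wild-type array, so the size is uncertain. C4b, complement component 4, rose by 1.92 ± 0.097 (SE; adjusted p = 7.98e-07), with a near-identical copy that leaves its probe uncertain. Serpina3n, a protease inhibitor of the acute phase, had intensities of 1185, 973 and 1111 against 428, 379.6 and 380.4, a change of 1.81 ± 0.11 (SE; adjusted p = 2.99e-06).

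The 4 that fell were Ttr, Ambp, Hpx and Trf. Ttr encodes transthyretin, the carrier of thyroid hormone that binds Rbp4 in plasma and whose level falls in the acute phase. Its intensities were 134, 142 and 139 on the knockout arrays and 277, 272 and 254 on the wild-type arrays, a change of -1.25 ± 0.091 (SE; limma, adjusted p = 7.58e-06). Hpx, the haem carrier hemopexin, which rises with haptoglobin in the liver response, changed the other way from Hp here, by -0.65 ± 0.13 (SE; limma, adjusted p = 0.00418). Ambp, the precursor of alpha-1-microglobulin, changed by -0.96 ± 0.15 (SE; adjusted p = 0.00102), and transferrin (Trf) by -0.47 ± 0.097 (SE). The liver acute phase markers Fgb and Hamp were detected on none of the 6 arrays, and Crp on at most 1 knockout array.

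Of 26 kept genes of acute phase signalling, 12 rose and 2 fell, a called share of 53.8% against 39.7% of all genes. Their median difference was 0.30. The split held 8 higher and 2 lower under median scaling, where quantile normalization is left out and the median over all genes is -0.08 rather than 0.03. The largest changes were rises of the cytokine receptor kinase gene Jak2 (1.09 ± 0.094, adjusted p = 2.26e-05), of the feedback inhibitor gene Socs3 (0.83 ± 0.10, adjusted p = 0.000221) and of Cebpb (0.69 ± 0.11, adjusted p = 0.00132), each log2 ± SE by limma. Stat3 rose by 0.41 ± 0.097 (SE; limma, adjusted p = 0.00905), and Nfkbia, the inhibitor of NF-kappaB that is also its target, changed by -0.51 ± 0.086 (SE; adjusted p = 0.00144). The receptor subunit gene Il6st (0.29 ± 0.10, limma, adjusted p = 0.0461) lost its call when wild-type array B or C or knockout array D, E or F was left out, with adjusted p of 0.128, 0.13, 0.134, 0.0706 and 0.0526, in a range of 0.00434 to 0.251 over 15 alternatives. Cebpd (0.36 ± 0.10, limma, adjusted p = 0.0194) lost its call without wild-type array A (adjusted p = 0.0714) or knockout array F (0.0583), in a range of 0.00227 to 0.132. Both calls were also lost under median scaling, with limma adjusted p of 0.251 for Il6st and 0.132 for Cebpd. That of Il6st was lost without the detection filter too (adjusted p = 0.0698). Of the cytokines themselves, Il1b was detected on no array and Il6 on 2 knockout arrays.

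**Figure D3:**
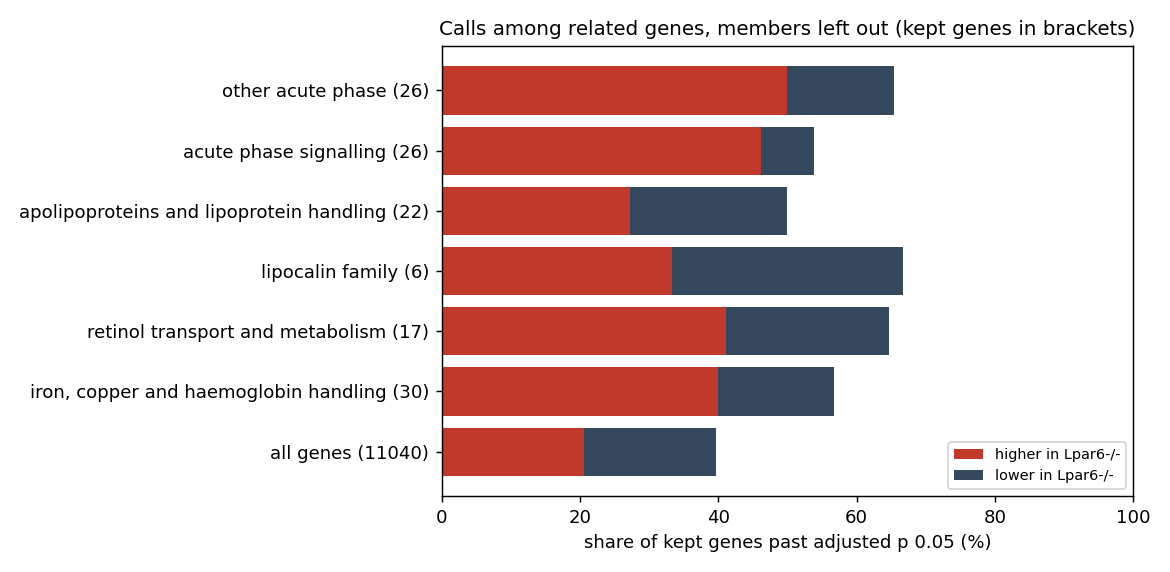
Share of kept genes (horizontal axis, percent) called by limma (adjusted p below 0.05), higher (red) or lower (blue) in the knockout, in 6 lists of related genes without the members and in all genes at the bottom. The called share is 65.4% for other acute phase genes and 39.7% for all genes.

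Of 22 kept apolipoprotein and lipoprotein handling genes, 6 rose and 5 fell, a called share of 50% against 39.7% of all genes. Their median difference was 0.09. The split was 4 higher and 6 lower with median scaling. Lpl, the lipase that Apoc1 is known to inhibit, had intensities of 8868, 7941 and 9733 on the knockout arrays and 3344, 3288 and 3415 on the wild-type arrays, a change of 1.40 ± 0.12 (SE; limma, adjusted p = 1.92e-05). It is also a fat cell marker. The Wnt co-receptor gene Lrp5 changed by 0.99 ± 0.15 (adjusted p = 0.00069), with detection on 2 wild-type arrays, and the sorting receptor gene Sorl1 by -0.95 ± 0.11 (adjusted p = 0.000143), each log2 ± SE by limma. Lrp1, a receptor for Apoe-bearing particles, had a difference of 0.25 that did not pass (limma, adjusted p = 0.105). The lipocalin family beyond the members had 6 kept genes, of which Lcn2 and Mup6 rose and Ambp and Apom fell. The called share was 66.7%, against 39.7% of all genes, and Mup6 passed the filter through the knockout arrays alone.

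Of 17 kept retinol genes, to which the transport partners of Rbp4 belong, 64.7% were called, against 39.7% of all genes. They were 7 higher and 4 lower, and 4 higher and 5 lower under median scaling. Without wild-type array A the count fell to 5 higher and 2 lower. The largest changes were those of Rarres2, which encodes the fat cell hormone chemerin (2.07 ± 0.093, adjusted p = 4.34e-07), of the retinoic acid receptor gene Rarb (-1.45 ± 0.11, adjusted p = 1.23e-05) and of Ttr, each log2 ± SE by limma. Stra6, the cell surface receptor for Rbp4, was near background and had a difference of 0.13 that did not pass (limma, adjusted p = 0.307).

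Of 30 kept genes of iron, copper and haemoglobin handling, to which haptoglobin and ceruloplasmin belong, 12 rose and 5 fell. The called share was 56.7%, against 39.7% of all genes. The split was 9 higher and 7 lower with median scaling. The reductase genes Steap3 (1.45 ± 0.13, adjusted p = 2.98e-05) and Steap2 (0.73 ± 0.099, adjusted p = 0.000423) and the biliverdin reductase gene Blvrb (0.82 ± 0.099, adjusted p = 0.000206) changed most, each log2 ± SE by limma. Steap3 was detected on 1 wild-type array. Cd163, the macrophage receptor that takes up haptoglobin with haemoglobin, was detected on no array by either of its probes. The iron exporter gene Slc40a1, which works with ceruloplasmin, had a change of 0.32 ± 0.11 (SE; limma, adjusted p = 0.0406). Its call was lost without wild-type array A or B or knockout array D, E or F, with adjusted p of 0.136, 0.0792, 0.0809, 0.105 and 0.0597. It was also lost under median scaling (limma, adjusted p = 0.0911) and without the detection filter (adjusted p = 0.0664). Over 15 alternatives the adjusted p ranged from 0.00302 to 0.136.

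Genes next to the members were taken as the 3 protein-coding genes on each side in the RefSeq order of assembly GRCm38.p6, a choice made after the data were seen. Of 26 such genes that were kept and are no members, 8 rose and 4 fell, a called share of 46.2% against 39.7% of all genes. Of the 8 that rose, Ffar4 beside Rbp4 (adjusted p = 0.0289 by limma) lost its call in 10 of 14 alternatives and Saal1 beside Saa3 (adjusted p = 0.0405 by limma) in 8 of 15, among them the removal of single arrays. Both calls were lost when array A, C or D was left out, with adjusted p of 0.1, 0.105 and 0.082 for Ffar4 and 0.0879, 0.0845 and 0.0979 for Saal1. Saal1 was also lost without wild-type array B or knockout array E or F, with adjusted p of 0.107, 0.0812 and 0.0597. On chromosome 17, Lrg1 lies beside 2 lipid droplet coat genes that rose, Plin5 (0.97 ± 0.14, adjusted p = 0.000487) and Plin4 (1.65 ± 0.093, adjusted p = 1.46e-06), and on its other side is Sema6b (-0.46 ± 0.12, adjusted p = 0.0146), each log2 ± SE by limma. The call of Sema6b was lost without wild-type array C (adjusted p = 0.0515). Of the genes around Hp on chromosome 8, 4 were kept and none was called, with differences between -0.18 and 0.17. Around Apoe and Apoc1 on chromosome 7, the kept genes were Apoc2, Tomm40, Nectin2 and Bcam, and none was called, with differences between -0.19 and 0.20.

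Markers of other cell types moved on the same arrays. Of 14 kept adipocyte markers, 13 rose and none fell, a called share of 92.9% against 39.7% of all genes. Of these, Adipoq, Cidea, Cidec, Plin1 and Lipe were detected on no wild-type array and entered through the knockout arrays, which fixes their direction. The summed signal of the adipocyte markers was 13472 to 15361 on the knockout arrays and 4008 to 4537 on the wild-type arrays. Lpl, the brightest of them, averaged 13.08 on the log2 scale in the knockout and 11.67 in the wild type. It makes up most of both sums. Adipoq, Car3 and Cidea changed most. No wild-type array detected Adipoq, whose knockout level was at least 53.98-fold higher with this background correction. Its fitted log2 change was 5.93 (limma, adjusted p = 5.61e-09), and 3.60 at the lowest over 14 alternatives. Fabp4, Retn and Ucp1 were detected on none of the 6 arrays. All 9 kept neutrophil markers rose, where 20.6% of all genes were called higher. Their summed signals were 1917 to 2291 in the knockout and 296 to 328 in the wild type. Camp and Ngp among them also entered through the knockout arrays alone. Lcn2, Ltf and Elane were detected on 1 wild-type array each, so they too needed the knockout arrays to pass the filter. Cxcr2 and Mmp8 and the leukocyte marker Ptprc were detected on none of the 6 arrays. Lcn2 is in that list too. Of 11 kept hepatocyte and yolk sac endoderm markers, none rose and 3 fell (Ttr, Afp and Apoa2), a called share of 27.3% against 39.7% of all genes, and the summed signal was 228 to 277 in the knockout and 402 to 419.8 in the wild type. Afp was detected on no knockout array and entered through the wild-type arrays, which fixes its direction. In that list Hnf4a, Serpina1b and Amn were detected on all 6 arrays and did not pass the test. Apoh, Cps1, Cyp2e1, Foxa2 and Tat were detected on no array, and Alb was detected on 1 knockout array. Macrophage markers split evenly, with 2 of 11 higher and 2 lower, a called share of 36.4% against 39.7% of all genes. Their median log2 difference was 0.11, and their sums were 4784 to 4989.7 in the knockout and 5194 to 6031 in the wild type. The remaining lists gave 8 of 9 epithelial (88.9%) and 9 of 12 fibroblast markers (75%) higher with none lower, against 20.6% of all genes higher. Esrp1, 1 of those epithelial markers, entered through the knockout arrays alone. Of 5 astrocyte and Schwann cell markers 1 was higher (20%). The part of these cell types in the members' differences was not tested.

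**Figure D4:**
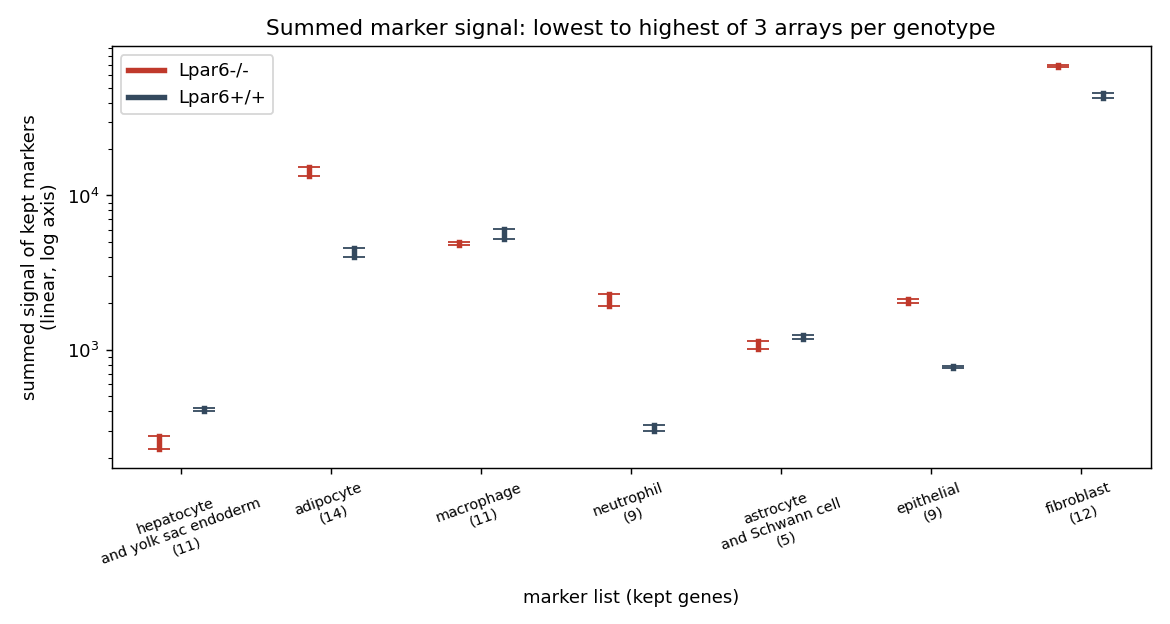
Summed linear signal of the kept markers of 7 cell type lists (vertical log axis), drawn from the lowest to the highest of the 3 knockout arrays (red) and of the 3 wild-type arrays (blue). The sums of the 2 genotypes overlap in none of the lists. Of all single genes, 52.8% have groups that do not overlap. The brightest markers weigh most in a linear sum. The adipocyte, neutrophil, epithelial and fibroblast sums are higher in the knockout. The hepatocyte and macrophage sums and that of astrocytes and Schwann cells are lower. The macrophage list nevertheless has a median log2 difference of 0.11, with 2 markers called higher and 2 lower. In the astrocyte and Schwann cell list the only marker called is higher.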

How the data were processed

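RNA of 3 Lpar6-/- and 3 Lpar6+/+ fibroblast samples was extracted with Trizol, amplified to biotinylated cRNA and hybridised to Illumina bead arrays, per the labels' protocols. The authors deposited a raw intensity and a detection p-value per array for 45281 probes, with no normalization. A second deposited table holds log2 values; the submitters' processing notes name limma, and other steps are not given in the sources consulted. Those log2 values had a median of 6.54 in every column and group means within 0.0039 of quantile-normalized log2 intensities. This sets their scale and direction and shows no centring of genes. The names of the intensity columns show the genotype with a letter and lack replicate numbers; each column was assigned to its genotype alone.

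Intensities were corrected with normexp and the background inferred from the detection p-values, quantile-normalized and log2-transformed after adding an offset of 16 (neqc, limma 3.58.1, R 4.3.3). The offset makes differences of dim probes smaller. Probes with a detection p below 0.05 on at least 3 of 6 arrays were kept (19802, 43.7%). Genes were named from GEO's platform annotation and checked by Entrez ID against RefSeq of GRCm38.p6, where 34807 probes matched and no symbol changed: 34885 probes had 1 symbol, 18 several and 10378 none. Where a gene had several kept probes, the brightest over all arrays stood for it, which gave 11040 genes. The test was limma's moderated linear model (lmFit, eBayes), knockout minus wild type, with p-values adjusted by Benjamini-Hochberg across every kept probe and called below 0.05. With a detection in no array of a genotype, the fold is a bound. The dim genotype's mean takes, on each array, the lowest detected signal or the probe's own signal if that is higher. Such bounds belong to this processing and need not hold under the alternatives. Marker sums add normalized linear signals minus the offset.

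Members, lists and tests were chosen with earlier results of these data known. The genes named were all members, Lpar6, the 3 called genes of largest change in each related list and in the adipocyte and hepatocyte lists, 18 genes fixed by name, and the 5 nearest profiles. Some of the fixed names, C3, Apod and Clu among them, are not analysed here. Genes named as neighbours of a member, as family copies, as not detected or as members of a list that fell were named after their values were seen. The pipeline was tested on simulated data. All sample titles carry the same number, whose meaning the labels do not give, so slide or batch effects could not be tested. The number of arrays limits the precision.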

Additional observations from a re-analysis of the deposited data

How the results depend on the processing

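The members' median difference was 2.12 on the log2 scale and depended on how dim signals were treated. It was 0.98 without background correction, 1.98 with median scaling, 1.22 with the authors' log2 values, 1.503 with an offset of 50, 0.88 over 9 genes without the detection filter, 1.89 over the 4 genes detected at p below 0.01 on all 6 arrays and 1.68 when the kept probes of a gene were averaged; it was 2.06 to 2.24 when each array was left out in turn. Among the 8 measured genes no difference changed sign under an alternative, and the lowest was 0.0099 for Cp with median scaling. With detection at p below 0.01 on all 6 arrays, which keeps fewer genes, the calls were 6 for apolipoprotein and lipoprotein genes in place of 11 and 1 for lipocalins in place of 4. Over all genes 4379 were called, 51.9% of them higher in the knockout, and 33.9% were higher with median scaling. Leaving out each array in turn gave 3580 to 4068 calls over all genes, 16 to 19 among other acute phase genes, 12 to 14 among signalling genes, 9 to 12 among apolipoprotein and lipoprotein genes, 3 to 4 among lipocalins, 7 to 11 among retinol genes and 12 to 16 among iron, copper and haemoglobin genes.

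Replicate numbers stand only in the authors' log2 values. Same-numbered samples of the 2 genotypes did not deviate together (correlations of -0.048, 0.020 and -0.054). This does not settle whether they shared a culture or a processing step, which the labels do not give. With the replicate number as a block, 4906 genes were called, against 4951 without it in the same values, and the counts were 17 for other acute phase genes, 14 for signalling, 11 for apolipoprotein and lipoprotein, 4 for lipocalin, 11 for retinol and 20 for iron, copper and haemoglobin genes. Levels near background limit Saa3, Orm1, the dimmer Mup2 probes and Rbp4, and the causes of these shifts beyond what the settings fix were not tested.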
